A study of Homo sapiens with 12 samples.

Results

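The peaks described here are the regions of H3K9me3 that the authors assigned to genes of the lincRNA type on chromosomes 1 to 22 of human 293T cells. They were taken by the type column of the authors' annotation, in a list for SMARCA3 knockout (KO) cells and a list for wild-type (WT) cells. There were 7923 such peaks, 4912 in the KO list and 3011 in the WT list, of 112068 peaks in all (65170 KO and 46898 WT), and they lay at 1472 lincRNA genes.

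The study profiled trimethylation of lysine 9 of histone H3 (H3K9me3) by chromatin immunoprecipitation and sequencing in 293T cells, a line of human embryonic kidney origin that carries the SV40 large T antigen. The KO cells have the genotype SMARCA3_KO and the WT cells the genotype WT, with no other agent or treatment named, and each genotype has 3 ChIP libraries and 3 input libraries. SMARCA3, now called HLTF, is a chromatin protein that moves along DNA and has the RING domain of ubiquitin ligases, and the labels do not say how it was deleted or whether the KO cells are 1 clone. Each genotype is represented by 1 list without values per library, so no spread between replicates, depth or test is given, and each interval below is a 95% interval for the counting of peaks or genes only.

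Long intergenic noncoding RNA (lincRNA) genes are transcribed from the stretches between protein-coding genes, and most have no known function. Some host microRNAs in their introns, and a few act in imprinting, chromatin regulation or tumour growth. H3K9me3 is laid down by SETDB1 and the SUV39H enzymes, is read by HP1 proteins, and marks silenced repeats, zinc finger gene clusters and gene-poor heterochromatin.

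RefSeq promoter windows were read for lincRNA genes with a peak near a start, and few of these windows lay under a peak. Of 530 lincRNA genes with a peak within 3 kb of a start, 99 had an entry in the RefSeq promoter table (GRCh38.p14, 250 bp before to 50 bp after the start), and a KO peak covered some of that window in 15 of them and a WT peak in 4. The RefSeq start is not always the start the authors used. By the authors' starts, 59 lincRNA genes in KO and 30 in WT had a peak within 250 bp. The promoters of 5 such genes are printed below because they show what starts under a KO peak look like: LINC01858 and LINC00459 were taken by the naming rule, and the other 3 were chosen after their values were seen. In LINC01858 and LINC01859 the capitals mark each copy of GTGACATAT, and in the other 3 they mark each CG, the dinucleotide that can carry DNA methylation.
LINC01858: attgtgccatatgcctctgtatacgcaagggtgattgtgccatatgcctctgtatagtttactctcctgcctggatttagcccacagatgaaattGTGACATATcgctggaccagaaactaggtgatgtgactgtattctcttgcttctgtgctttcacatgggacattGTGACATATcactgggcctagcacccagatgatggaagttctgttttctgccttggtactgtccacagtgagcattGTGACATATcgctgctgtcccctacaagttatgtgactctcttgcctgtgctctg
LINC01859: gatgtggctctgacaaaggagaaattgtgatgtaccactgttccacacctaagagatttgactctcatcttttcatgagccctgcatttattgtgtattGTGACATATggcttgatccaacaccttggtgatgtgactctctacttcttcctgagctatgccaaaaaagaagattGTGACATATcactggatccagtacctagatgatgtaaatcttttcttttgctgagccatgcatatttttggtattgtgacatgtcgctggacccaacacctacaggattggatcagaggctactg
LINC00308: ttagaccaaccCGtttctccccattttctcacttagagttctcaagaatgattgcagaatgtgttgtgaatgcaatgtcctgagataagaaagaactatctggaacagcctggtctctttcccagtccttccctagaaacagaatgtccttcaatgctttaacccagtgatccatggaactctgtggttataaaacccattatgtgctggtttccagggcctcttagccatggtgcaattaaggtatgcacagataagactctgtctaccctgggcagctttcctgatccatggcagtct
LINC00459: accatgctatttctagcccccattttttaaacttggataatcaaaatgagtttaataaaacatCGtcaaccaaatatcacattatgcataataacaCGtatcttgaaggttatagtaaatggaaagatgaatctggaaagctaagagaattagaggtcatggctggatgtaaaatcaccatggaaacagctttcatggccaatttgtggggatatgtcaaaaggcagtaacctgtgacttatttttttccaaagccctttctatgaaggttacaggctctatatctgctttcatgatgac
LINC00402: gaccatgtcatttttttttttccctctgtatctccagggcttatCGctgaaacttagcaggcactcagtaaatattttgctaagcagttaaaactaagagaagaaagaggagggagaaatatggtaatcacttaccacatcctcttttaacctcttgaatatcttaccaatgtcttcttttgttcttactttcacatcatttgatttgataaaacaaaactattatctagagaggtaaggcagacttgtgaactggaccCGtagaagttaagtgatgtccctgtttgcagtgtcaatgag

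The LINC01858 window is chr19:23061216-23061515 on the minus strand, and the KO list covered 152 of its 300 bp and the WT list 0. The LINC01859 window is chr19:23023648-23023947 on the same strand, with 278 bp covered in the KO list and 0 in the WT list. LINC00308, at chr21:22098367-22098666 on the plus strand, had 160 bp covered in KO and 0 in WT. LINC00459, at chr13:62323407-62323706, and LINC00402, at chr13:74231194-74231493, both on the plus strand, were covered over all 300 bp in KO, against 0 bp and 133 bp in WT. At LINC00402 the fold was 3.48 in KO and 6.19 in WT. These 5 were picked from starts under a KO peak, 3 of them after their values were seen, so they give no rate. Of all 15 such windows covered in either list, a KO peak covered 15 and a WT peak 4.

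The word GTGACATAT was chosen after reading the 2 chromosome 19 promoters, in which it occurs 3 times (LINC01858) and 2 times (LINC01859). Searched on both strands, it was present in 73 of the 35116 promoters of the table (0.208%), and 19 promoters (0.0541%) held at least 2 copies, 10 of them on chromosome 19 and 6 on chromosome 7. It is a description of these letters and names no bound factor. The 15 promoters covered in the KO list had a median GC content of 43.7% and a median of 2 CG dinucleotides, against 58.7% and 14 in all promoters of the table. The TATA word TATAAA, on either strand, was in 4 of the 15 (26.7%) and in 11.5% of all promoters. Among these 4, the windows of LINC00308 and LINC01687 (chr21:22098410-22098709) overlap on opposite strands, so they are not separate sequences. LincRNA promoters without a peak over them were not set beside the 15. Neither the GC content nor the TATA word is thus shown to be particular to starts under a peak.

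The KO list held more lincRNA peaks than the WT list, and the surplus was larger for lincRNA genes than for protein-coding genes. KO peaks outnumbered WT peaks by a ratio of 1.63 (1.56 to 1.71) at lincRNA genes, 1.33 (1.30 to 1.36) at protein-coding genes and 1.44 (1.42 to 1.46) over all autosomal peaks. LincRNA peaks made up 7.94% of autosomal peaks in KO (7.73 to 8.16) and 7.0% in WT (6.77 to 7.25), a difference of 0.940 percentage points (0.617 to 1.26). Protein-coding peaks made up 34.7% in KO and 37.5% in WT, a difference of -2.82 points (-3.41 to -2.23). The type the authors call misc stood between, at a ratio of 1.55.

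The lincRNA ratio divided by the protein-coding ratio was 1.23 (1.17 to 1.29). Comparing the 2 types only inside the same chromosome gave 1.21 (1.15 to 1.27), and only inside the same 1 Mb window gave 1.23 (1.13 to 1.33). Set against all other peaks, the same quotient was 1.15 (1.09 to 1.20) over the genome and 1.09 (1.03 to 1.16) inside 1 Mb windows. Without chromosomes 14, 19 and 21 the quotient against all other peaks was 1.06 (1.01 to 1.12). These quotients were chosen after seeing the data.

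LincRNA peaks were also wider in the KO list. They covered 3638 kb in KO and 2005 kb in WT, a ratio of 1.81. Their mean width was 741 bp in the KO list against 666 bp in the WT list. Peaks over 1 kb wide were 19.9% of KO and 15.7% of WT lincRNA peaks. Protein-coding peaks were wider in both lists, averaging 852 bp in the KO list and 743 bp in the WT list.

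The fold enrichment, which is the authors' own value for each peak, had a median of 3.59 in KO and 3.77 in WT lincRNA peaks, with a highest value of 9.34 in KO and 8.58 in WT. The surplus of KO peaks changed with the fold required. From the pooled median fold of 3.69 upwards there were 2115 KO and 1719 WT lincRNA peaks, a ratio of 1.23 (1.15 to 1.31). At a fold of 5 and above the counts were 369 KO and 255 WT (1.45, 1.23 to 1.70), and at 6 and above 105 KO and 50 WT (2.10, 1.50 to 2.94). Protein-coding peaks gave 1.04, 1.25 and 1.56 at the same 3 thresholds, below the lincRNA ratio at each. Filtered by q-value at the pooled median in place of fold, the lincRNA ratio was 2.50, and with the KO list reduced to as many peaks as the WT list, smallest q-values kept, it was 1.14.

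**Figure D1:**
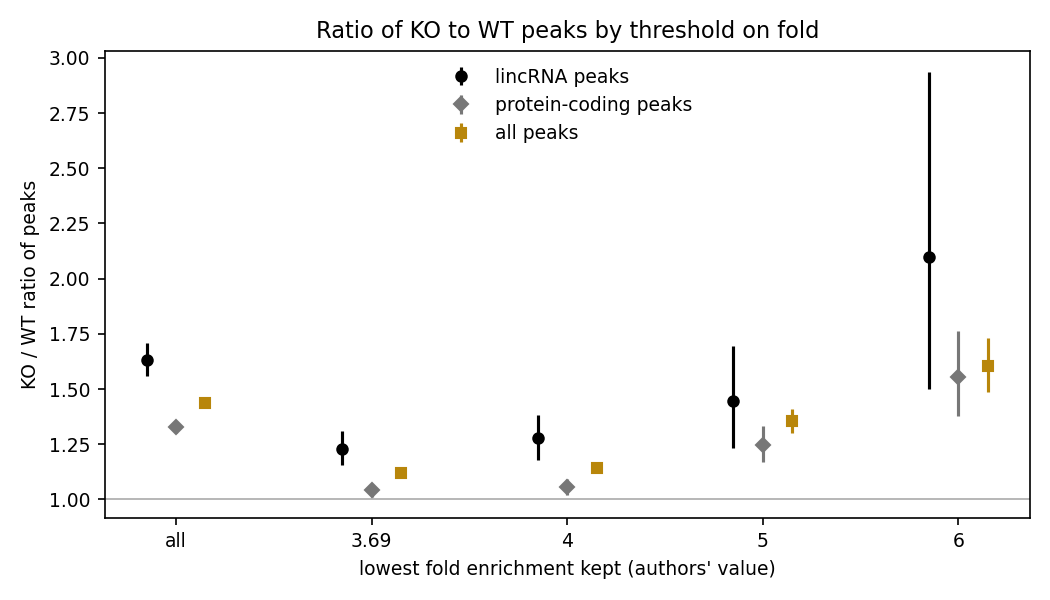
Ratio of KO to WT peaks (y axis) against the lowest fold enrichment kept (x axis, the authors' values) for lincRNA, protein-coding and all autosomal peaks, with bars for 95% counting intervals. The lincRNA ratio is 1.63 with no threshold, 1.23 at the median fold and 2.10 at 6, and lies above the protein-coding ratio at every threshold drawn.

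Peaks were sorted by the authors into classes by their distance from a transcript start. Within 250 bp of a start there were 60 KO and 30 WT lincRNA peaks, a ratio of 2.00 (1.29 to 3.09). From there to 1 kb there were 209 KO and 84 WT peaks (2.49, 1.93 to 3.20), and from 1 to 3 kb 485 KO and 244 WT peaks (1.99, 1.70 to 2.32). Gene bodies held most of them, with 4158 KO and 2653 WT peaks and the lowest ratio of the classes, 1.57 (1.49 to 1.65).

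Taken as 1 promoter class within 3 kb, lincRNA starts held 754 KO and 358 WT peaks, or 15.4% of KO and 11.9% of WT lincRNA peaks, a difference of 3.46 points (1.91 to 4.98). Protein-coding starts held 12.3% of KO and 10.5% of WT protein-coding peaks, a difference of 1.87 points (1.23 to 2.52). For the type misc these shares were 45.1% in KO and 41.6% in WT, a difference of 3.51 points (1.49 to 5.52). The promoter shift was thus not particular to lincRNA peaks. Among the few peaks of fold 6 and above the lincRNA difference was -1.62 points (-14.8 to 8.79), an interval too wide to give its sign. A promoter-class peak was present at 490 lincRNA genes in KO and 263 in WT, and 223 genes had one in both. Of the peaks within 250 bp of a start, 20 of 60 in KO met a WT peak and 24 of 30 in WT met a KO peak.

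**Figure D2:**
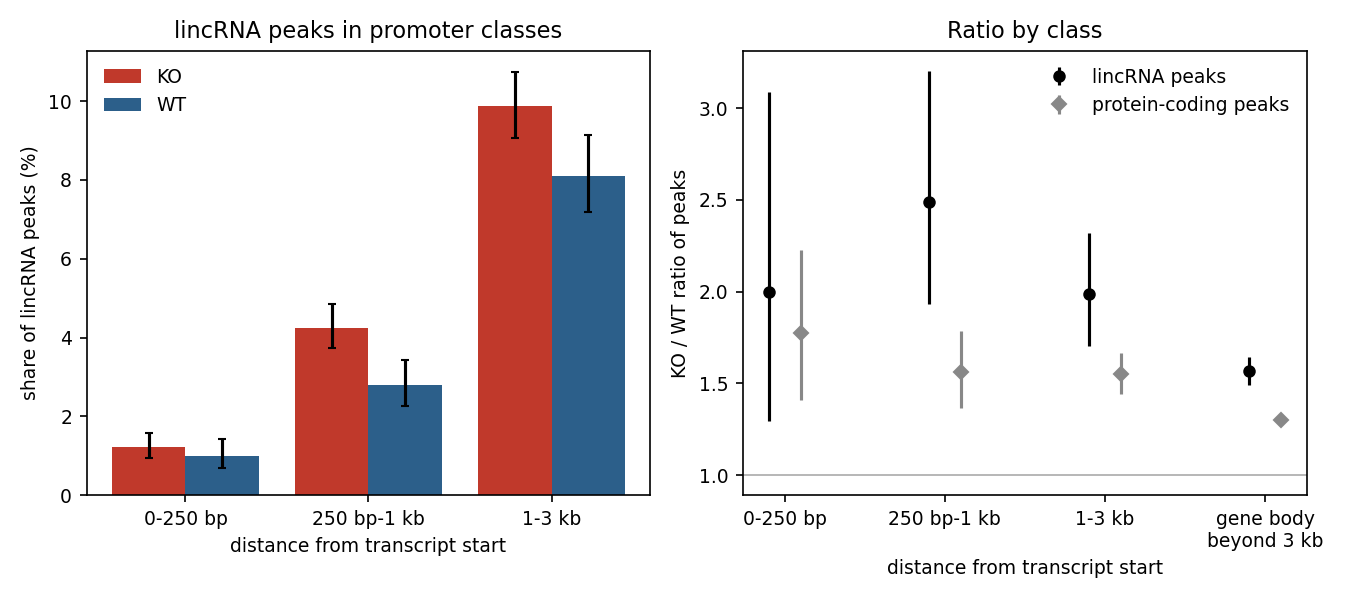
Left, share of each list's lincRNA peaks (%) in the 3 promoter classes, for KO and WT; right, ratio of KO to WT peaks by class for lincRNA and protein-coding peaks; bars are 95% counting intervals. For lincRNA peaks the 3 promoter classes have ratios of 2.00, 2.49 and 1.99 and gene bodies 1.57.

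Inside gene bodies, lincRNA peaks were spread evenly along the transcript. Over 4 equal stretches from the start to the end of the transcript, KO peaks fell at 22.6%, 25.4%, 26.9% and 22.3%, and WT peaks at 23.3%, 26.2%, 26.3% and 22.4%. Protein-coding bodies were loaded towards the start, with 31.4% in the first stretch and 15.5% in the last in KO, and 32.2% and 15.2% in WT. The median distance of a body peak from its lincRNA start was 37.8 kb in KO and 39.4 kb in WT. LincRNA peaks rarely lay inside a protein-coding gene of the RefSeq table, at 248 KO (5.05%) and 143 WT peaks (4.75%). A low share is largely set by the type itself, since lincRNA genes are defined as intergenic.

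Most WT lincRNA peaks were also in the KO list, while most KO lincRNA peaks met none in the WT list. At an overlap of at least 1 bp, 2775 of 4912 KO lincRNA peaks (56.5%) met no WT peak, where the share over all autosomal KO peaks was 50.3%. In the WT list 606 of 3011 (20.1%) met no KO peak, where the share over all WT peaks was 18.4%. The shares that did meet were thus 43.5% in KO (42.1 to 44.9) and 79.9% in WT (78.4 to 81.3). For protein-coding peaks they were 54.4% in KO and 82.9% in WT.

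Peaks of 1 list only were narrow and of lower fold. Their width had a median of 394 bp in the KO list and 354 bp in the WT list, against 811 bp for shared KO and 527 bp for shared WT peaks. Of KO lincRNA peaks in the top quartile of fold 73.2% were shared, and of those in the bottom quartile 30.2%. In the WT list these shares were 94.9% and 76.3%. Of promoter-class peaks of the KO list 33.4% (30.1 to 36.9) were shared, and of body peaks 45.3% (43.8 to 46.9). In the WT list the order was the other way, 83.2% (79.0 to 86.8) of promoter-class and 79.4% (77.8 to 80.9) of body peaks.

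KO-only peaks mostly joined genes that had a WT peak elsewhere. Of the 2775, 1830 (65.9%) lay at lincRNA genes with a WT peak and 945 (34.1%) at genes with none, and their median distance to the nearest WT peak was 13.6 kb. Of the 606 WT-only peaks, 495 (81.7%) lay at genes of both lists, and the median distance of the 606 to the nearest KO peak was 2.63 kb. The same shares and distances were not counted for peaks of every type. The KO list is also the longer, so these values are not shown to be particular to lincRNA peaks.

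Per gene, 938 of the 1472 lincRNA genes (63.7%) had a peak in both lists. A peak in KO alone was found at 444 (30.2%, 27.9 to 32.6), against 24.2% of all 8965 genes with a peak and 16.5% of protein-coding genes. A peak in WT alone was found at 90 (6.11%), against 5.72% of all genes. More bases under KO than WT peaks were found at 1213 lincRNA genes (82.4%), close to the 80.2% of all genes, and fewer at 259 (17.6%, all genes 19.8%). The median difference between KO and WT was 591 bp at lincRNA genes and 535 bp over all genes.

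The single-list genes mostly had 1 peak. Of the 444 genes of KO alone 273 had 1 peak and 29 had 5 or more, and of the 90 genes of WT alone 70 had 1 peak and 1 had 5 or more. Of the 29 KO genes 11 lay on chromosome 21, 9 on chromosome 19 and 4 on chromosome 7. The kind of name made little difference: genes named LINC had 1715 KO and 1043 WT peaks (1.64, 1.52 to 1.78), and genes named after a clone had 2750 KO and 1702 WT peaks (1.62, 1.52 to 1.72).

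The gene with the most KO peaks, AL603840.1 (chr1:55329288-56070513), was marked in both genotypes. It held 48 KO and 41 WT peaks covering 36057 KO and 34058 WT bp, and 30 of its KO peaks met a WT peak. LINC02240 (chr5:124808981-125602227) held 41 KO and 31 WT peaks, and LINC01170 on the same chromosome (chr5:124059794-124395039) 30 KO and 27 WT peaks. LINC00376 (chr13:63183101-63328094) held 28 KO and 22 WT peaks over almost equal lengths, 25235 KO and 24729 WT bp. These 4 genes, of no function known here, carried many peaks in both lists. The peaks covered 4.22% (LINC02240) to 17.4% (LINC00376) of the gene length in KO, and 2.88% to 17.1% in WT at the same genes. Which list held more depended on the processing: after the KO list was reduced to the length of the WT list, the KO minus WT number was -11 peaks at AL603840.1, -1 at LINC02240, -6 at LINC01170 and -2 at LINC00376.

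A second kind of gene had many peaks in the KO list and few or none in the WT list. LINC02307 (chr14:43995781-44384545) held 46 KO and 6 WT peaks, which covered 20307 bp in KO and 4964 bp in WT. AC008554.1 (chr19:20432552-20528615) held 43 KO and 0 WT peaks, and its KO peaks covered 23249 bp, equal to 24.2% of the length of the gene. Their folds ran from 2.74 to 4.65 with a median of 3.73, and 4 of them lay within 3 kb of a start. On chromosome 21, AP001341.1 (chr21:25169431-25333825) held 35 KO and 0 WT peaks, LINC01692 (chr21:24840550-25057746) 32 KO and 0 WT, LINC01687 23 KO and 0 WT, and LINC01684 17 KO and 0 WT. MIR548XHG (chr21:18561265-18760003) held 33 KO peaks and 1 WT peak. The peaks of these genes were narrow, with KO medians of 337 bp at LINC01684 to 408 bp at AC008554.1. Their surplus was smaller but of the same sign when only peaks from the median fold upwards were kept, with KO minus WT of 5 peaks at LINC02307, 22 at AC008554.1, 10 at AP001341.1, 11 at LINC01692 and 7 at MIR548XHG, and was 0 at fold 6 at these 5 genes.

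**Figure D3:**
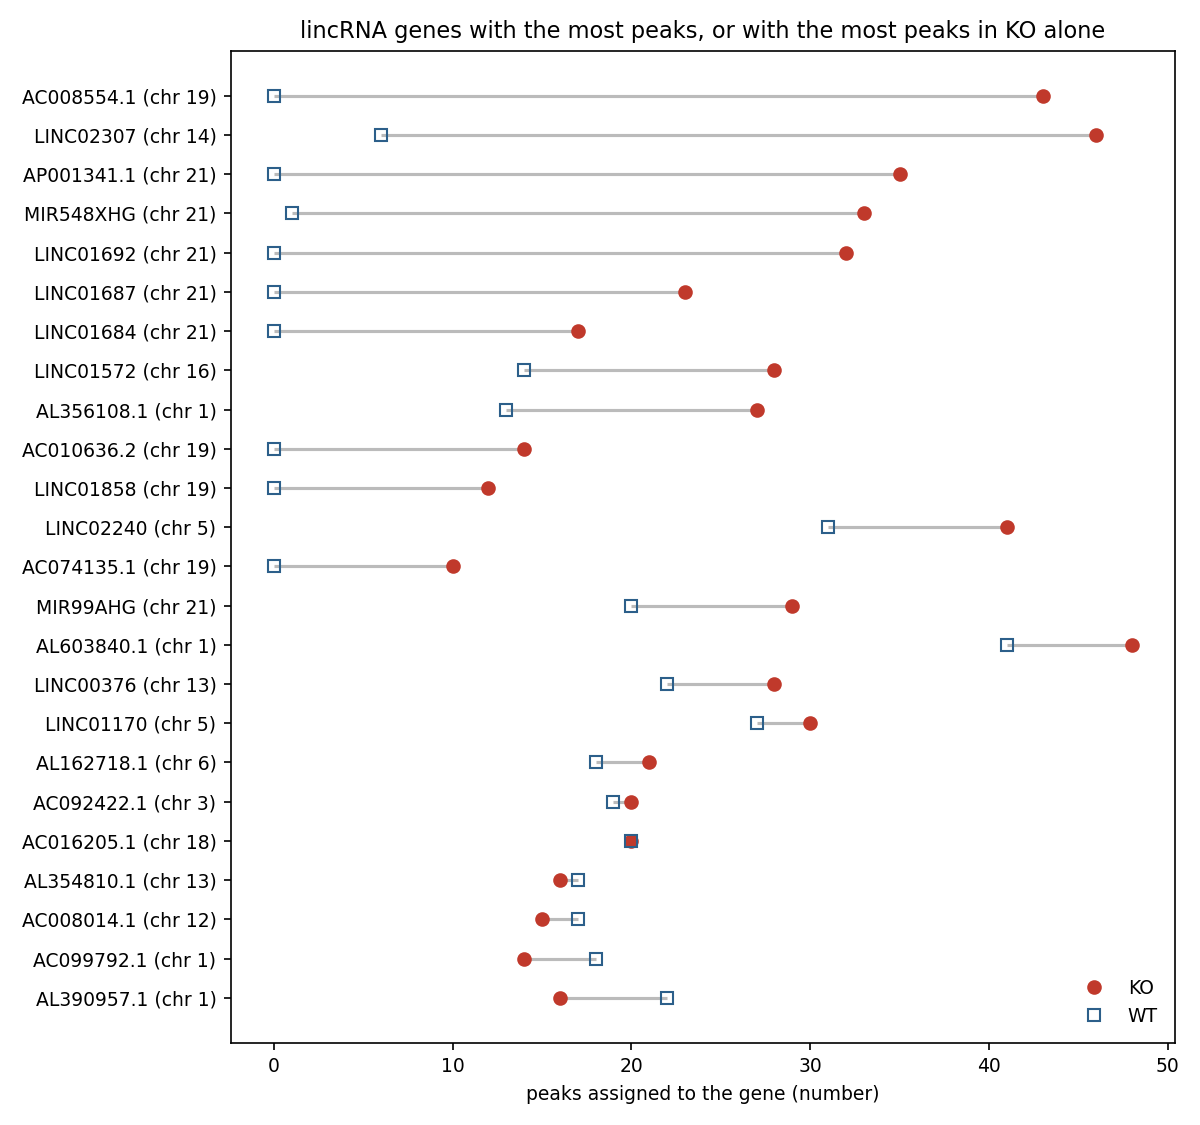
Numbers of peaks per lincRNA gene in the KO and WT lists for the genes with the most peaks in either list or in KO alone, ordered by the difference between KO and WT. AC008554.1 (43 KO, 0 WT), AP001341.1 (35 KO, 0 WT) and LINC01692 (32 KO, 0 WT) have no WT peak, whereas AL603840.1 has 48 KO and 41 WT.

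The positions of the peaks differed between these genes as well. In AC008554.1 the 43 KO peaks were split evenly, 22 in the first and 21 in the second part of the gene by length. LINC02307 had 25 KO peaks in the first and 21 in the second part, while 5 of its 6 WT peaks lay in the first. In AL603840.1 both lists had peaks towards both ends of the gene with gaps between them, covering 4.86% of its length in KO and 4.59% in WT. Its first and second part held 28 and 20 KO peaks and 21 and 20 WT peaks.

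**Figure D4:**
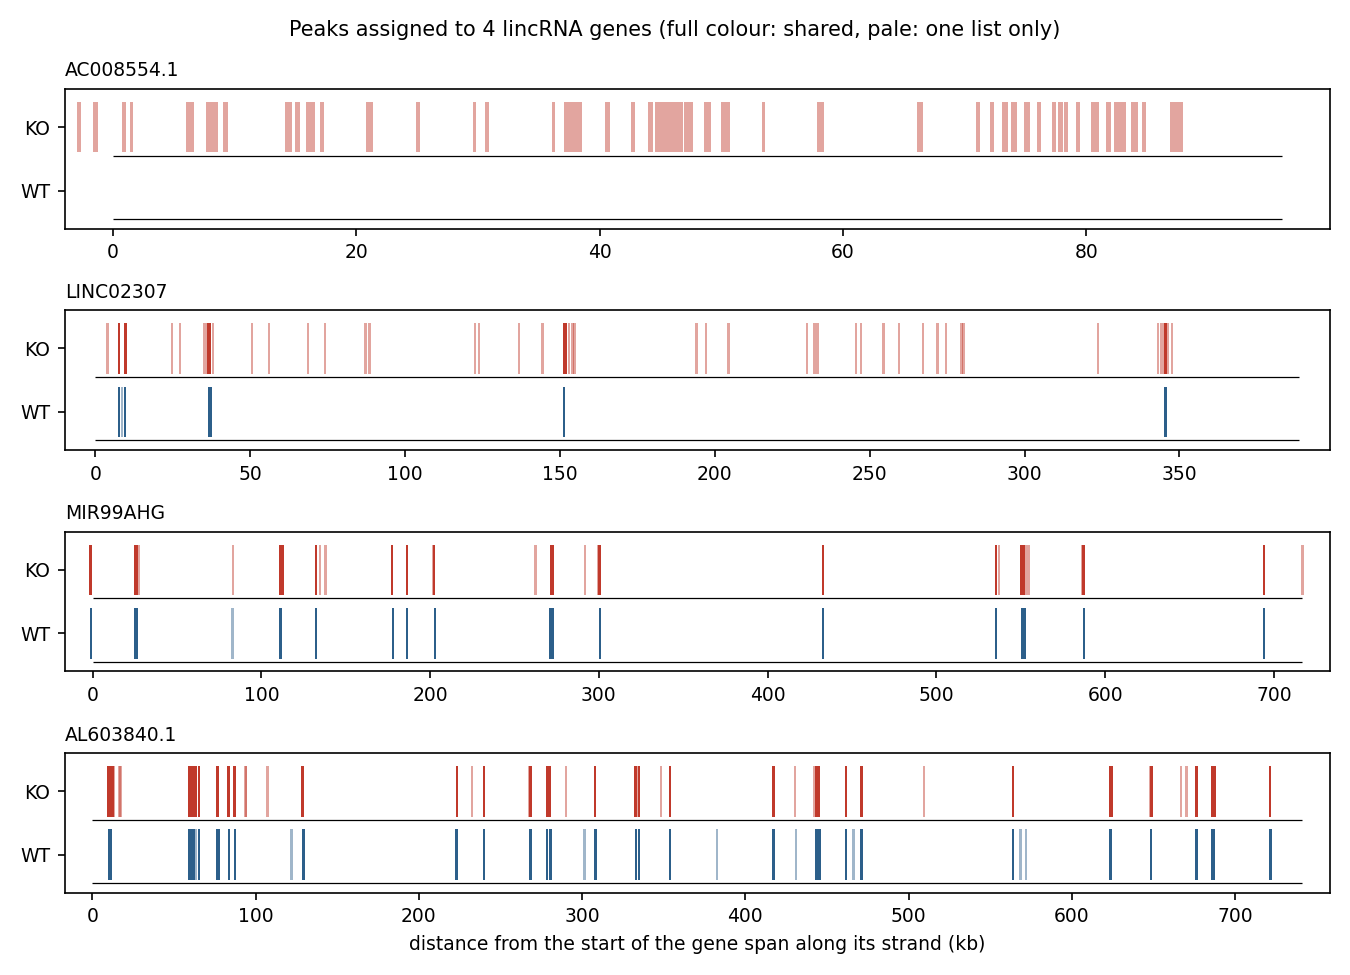
Positions of KO peaks (upper row of each gene) and WT peaks (lower row) along AC008554.1, LINC02307, MIR99AHG and AL603840.1, in kb from the start of the gene along its strand, in full colour where shared and pale where in 1 list only, with narrow peaks widened to a visible width. AC008554.1 has 43 KO peaks and an empty WT row, and LINC02307 46 KO and 6 WT peaks, while both rows hold many peaks in AL603840.1.

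Other lincRNA genes of chromosome 19 also had peaks in KO alone. AC010636.2 held 14 KO and 0 WT peaks, LINC01858 (chr19:23046958-23061752) 12 KO and 0 WT, and AC074135.1 10 KO and 0 WT. The 12 peaks of LINC01858 covered 7775 bp, equal to 52.6% of its length though some lie beyond its ends. Of these, 5 were of the promoter classes, and 1 is the peak over the promoter printed above.

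Genes with more signal in WT were fewer and their differences smaller. AL390957.1 (chr1:192167786-192925715) held 16 KO and 22 WT peaks, covering 11032 KO and 12557 WT bp, and had 3 more KO than WT peaks when filtered by q-value. AL354810.1 (chr13:63034992-63097797) had nearly equal counts, 16 KO and 17 WT, over 13684 KO and 17541 WT bp, and held the WT lincRNA peak of highest fold (8.58). LINC01192 (chr3:163127923-163361563), the only gene of WT alone with 5 or more peaks, held 0 KO and 7 WT peaks covering 2975 bp. LINC01047 held 1 KO and 4 WT peaks over 2156 KO and 5485 WT bp, and LINC00383 6 KO and 9 WT peaks over 4094 bp in KO and 7183 bp in WT. The next genes of WT alone by the naming rule, AC116049.2, AL512641.1, LINC00410, LINC02253 and LINC02068, had 3 WT peaks each.

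The peaks of highest fold were in both lists. The 5 highest KO folds were at ANKRD34C-AS1 (9.34), AC087762.1 (9.15), LINC00376 (8.22), LINC02366 (7.76) and AC104041.1 (7.76). The 5 highest WT folds were at AL354810.1 (8.58), AC015574.1 (8.00), LINC02528 (7.63), LINC00240 (7.47) and LINC01951 (7.47). All 10 met a peak of the other list, and the highest fold of a peak in 1 list only was 6.68 in KO and 5.64 in WT. The widest KO peak, 10601 bp at AC004542.2 (chr22:30970288-30980888), met a WT peak of 373 bp, and the widest WT peak was 11881 bp at LINC00376 (chr13:63275193-63287073). Among promoter-class peaks the highest fold was 7.56 at AL160408.1 in KO and 7.32 at FILNC1, a FOXO-induced RNA of kidney cells, in WT.

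Many well-studied lincRNAs were without a peak. How many of all annotated lincRNA genes lack a peak was not counted, so the numbers without a peak in this and the next gene lists have no background. Of 42 autosomal genes of that list, 9 had a lincRNA-type peak (9 in KO, 8 in WT), 10 had peaks under another type, and 23, among them MALAT1, NEAT1, H19, HOTAIR and GAS5, had none in either list. All 9 had more bases in KO, as did 82.4% of all lincRNA genes, with 85 KO and 52 WT peaks together and a median difference of 1760 bp, against 591 bp over all lincRNA genes. CASC15 (chr6:21668819-22368328), a gene at a neuroblastoma risk locus, held 25 KO and 13 WT peaks over 21189 KO and 9304 WT bp, and 16 of its KO peaks met no WT peak. LINC00598 held 15 KO and 8 WT peaks, LINC00461, from which miR-9 is made, 6 KO and 3 WT, and LINC00299 4 KO and 1 WT. BANCR, known for its part in melanoma cell migration, held 1 KO peak of 2895 bp and 3 WT peaks of 2564 bp in all. FENDRR, needed for heart and body wall development in the mouse, held 1 KO and 0 WT peaks.

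Both imprinted genes with a peak were the neighbours MEG3 and MEG8, transcribed from the maternal chromosome. MEG3 (chr14:100779410-100829185), a growth-suppressing RNA, held 2 KO and 2 WT peaks that covered 4462 bp in KO and 1174 bp in WT, with a highest fold of 5.04 in KO and 2.67 in WT. MEG8, also a host of small nucleolar RNAs and the only such host with a lincRNA-type peak among 34, held 2 KO and 2 WT peaks over 1223 bp in KO and 578 bp in WT. The same number of peaks thus covered more of both genes in KO. The other 20 of 23 imprinted noncoding genes had no peak, and 1 had peaks under another type.

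Of 28 lincRNA genes studied in colorectal cancer, the disease named in the series title, 5 had a lincRNA-type peak in both lists, and all 5 had more bases in KO, as did 82.4% of all lincRNA genes. Together they had 19474 bp in KO against 12790 bp in WT, over 23 KO and 20 WT peaks. CRNDE, a gene active in colorectal tumours, held 2 KO and 2 WT peaks over 2479 bp in KO and 2167 bp in WT. LINC00355 held 13 KO and 11 WT peaks over 7048 bp in KO and 6934 bp in WT, LINC00858 2 KO and 3 WT, and LINC01234 4 KO and 2 WT. MEG3 is the fifth. CCAT1, CCAT2, PVT1 and UCA1 were among the 21 without a peak.

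MicroRNA host lincRNAs, 16 genes, held 127 KO and 64 WT peaks (1.98, 1.47 to 2.68), and 94 KO and 63 WT without MIR548XHG (1.49, 1.09 to 2.05). The largest, MIR99AHG (chr21:15928296-16645065), held 29 KO and 20 WT peaks over 24668 KO and 15579 WT bp, and 13 of its KO peaks met no WT peak. At or above the median fold it held 5 fewer KO than WT peaks. The mature microRNAs of 4 hosts are printed to show which products lie inside these marked genes, with the seed, bases 2 to 8, in capitals (RefSeq, GRCh38.p14).
hsa-miR-99a-5p: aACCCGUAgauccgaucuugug
hsa-let-7c-5p: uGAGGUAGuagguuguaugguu
hsa-miR-125b-5p: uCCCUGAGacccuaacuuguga
hsa-miR-4500: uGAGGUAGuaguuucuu
hsa-miR-548x-5p: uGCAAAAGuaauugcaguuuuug
hsa-miR-146a-5p: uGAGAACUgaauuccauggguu

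The first 3 come from MIR99AHG, hsa-miR-4500 from MIR4500HG, hsa-miR-548x from MIR548XHG and hsa-miR-146a from MIR3142HG. The let-7 family member hsa-let-7c and hsa-miR-4500 share the seed GAGGUAG, and the other 4 seeds differ from it and from each other. Of 16 microRNA genes in 12 of the hosts, 0 were covered by a KO peak and 0 by a WT peak, and the nearest peak was a median of 22974 bp away in KO and 25888 bp in WT. The nearest peak to hsa-let-7c lay 23353 bp away in KO and 347 bp away in WT, and that to hsa-miR-99a 22616 bp in KO and 1084 bp in WT. Both WT distances are to the same peak, which was 327 bp wide with a fold of 3.53 and is not among those counted at MIR99AHG. For hsa-miR-548x it lay 2243 bp away in KO and 25915 bp in WT. So 10 of the 16 lay closer to a KO peak and 6 closer to a WT peak.

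All 22 autosomes had more lincRNA peaks in KO, and the interval of the ratio lay above 1 in 21 of them, the exception being chromosome 18 with 92 KO and 68 WT peaks (1.35, 0.990 to 1.85). Chromosome 21 held 458 KO and 85 WT lincRNA peaks (5.39, 4.28 to 6.79), where all of its peaks gave 3.52. Chromosome 19 held 268 KO and 50 WT (5.36, 3.97 to 7.24), where all of its peaks gave 2.08 and its protein-coding peaks 1.74. These were the only 2 chromosomes whose interval lay wholly above the ratio of all their peaks. Chromosome 20 followed with few peaks, 60 KO and 28 WT (2.14, 1.37 to 3.34), then chromosome 7 with 222 KO and 113 WT (1.96, 1.57 to 2.46). Chromosome 14 had 201 KO and 105 WT (1.91, 1.51 to 2.42). The lowest ratio was 1.25 (1.05 to 1.48) on chromosome 13, with 287 KO and 230 WT peaks.

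**Figure D5:**
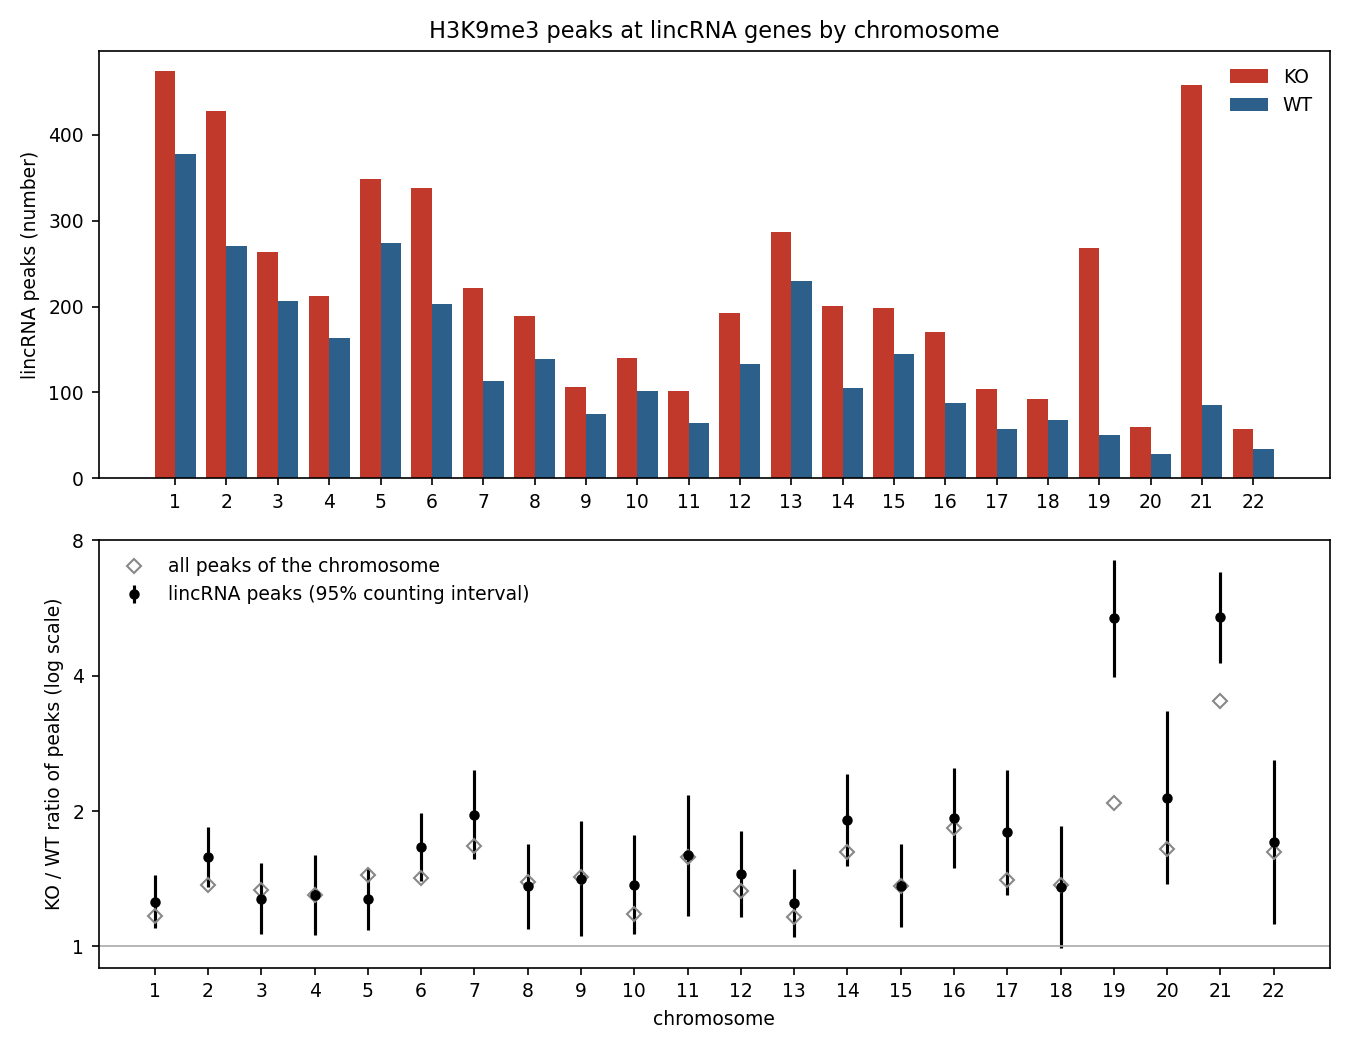
Top, numbers of lincRNA peaks by chromosome in the KO and WT lists; bottom, their KO to WT ratio on a log scale with 95% counting intervals, beside the ratio of all peaks of the chromosome. The ratios of chromosomes 19 (5.36) and 21 (5.39) stand apart, and those of the others lie between 1.25 and 2.14.

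Chromosomes 14, 19 and 21 together held 927 KO and 240 WT lincRNA peaks (3.86, 3.35 to 4.45), and 36.1% of the net surplus of 1901 KO peaks. Their joint ratio rests mainly on 19 and 21, since chromosome 14 alone gave 1.91. That is below chromosomes 20 (2.14), 7 (1.96) and 16 (1.93, with 170 KO and 88 WT peaks). The other 19 autosomes held 3985 KO and 2771 WT (1.44, 1.37 to 1.51). Without those 3 chromosomes the lincRNA ratio divided by the protein-coding ratio was 1.13 (1.08 to 1.20), and 49.4% of KO lincRNA peaks met a WT peak. On chromosome 19, 37 of 68 lincRNA genes had peaks in KO alone and 13.8% of KO lincRNA peaks met a WT peak. On chromosome 21 these were 35 of 65 genes and 12.2%. The same shares over peaks and genes of every type were not counted for these sets of chromosomes.

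The surplus was spread over most windows and was largest in a few. Among 484 windows of 5 Mb with a lincRNA peak, 339 had more KO peaks, 79 fewer and 66 as many, and the 10 windows of largest gain, with 808 KO and 139 WT peaks, held 35.2% of the net surplus. From 20 to 25 Mb on chromosome 21 there were 191 KO and 13 WT lincRNA peaks, at 22 genes in KO and 8 in WT. From 20 to 25 Mb on chromosome 19 there were 157 KO and 8 WT, at 19 genes in KO and 4 in WT. In both windows peaks of every type moved with them, at 816 KO and 47 WT on chromosome 21 and 1233 KO and 199 WT on chromosome 19, and their part in the lincRNA counts was not tested. From 40 to 45 Mb on chromosome 14, where LINC02307 lies, there were 62 KO and 7 WT lincRNA peaks, and 302 KO and 52 WT peaks of every type. The largest loss was from 160 to 165 Mb on chromosome 3, with 0 KO and 8 WT lincRNA peaks, where LINC01192 lies. Peaks of every type there numbered 16 KO and 65 WT.

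Peaks of lincRNA genes within 100 kb of a protein-coding zinc finger gene (names starting ZNF, ZFP, ZSCAN or ZKSCAN in the RefSeq table) were 351 of 4912 in KO (7.15%, 6.46 to 7.90) and 103 of 3011 in WT (3.42%, 2.83 to 4.13), a ratio of 3.41 (2.74 to 4.24). Away from such genes the ratio was 1.57 (1.50 to 1.64). Of the near peaks, 222 of 351 in KO and 35 of 103 in WT lay on chromosome 19 (6.34, 4.45 to 9.04). Most near KO peaks were thus on that chromosome, and most near WT peaks were on others. The chromosome 19 lincRNA peaks farther off numbered 46 KO and 15 WT (3.07, 1.73 to 5.45). On the other chromosomes the ratio was 1.90 (1.42 to 2.54) near zinc finger genes and 1.56 (1.49 to 1.64) away from them, with overlapping intervals. Of protein-coding peaks 16.9% in KO and 14.7% in WT lay near a zinc finger gene.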

How the data were processed

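H3K9me3 ChIP-seq of SMARCA3_KO and WT 293T cells was deposited by the authors as 1 annotated peak list per genotype. HISAT2 and the build hg38 are named per the submitters' processing notes. How peaks were called, whether inputs were used for it and how the 3 replicates were combined is not given in the sources used here. Fold enrichment, as deposited, was read as a ratio of the ChIP to its background, and the deposited q-value as an adjusted p-value of each peak; both are the authors' values and served only to describe or filter peaks within a list. Other deposited columns give the assigned transcript with its start, end and type, and the distance of the peak from its start.

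Peaks of type lincRNA on chromosomes 1 to 22 were counted per list, class, gene and window (Python 3.11.15, pandas 2.3.3, NumPy 2.4.6, SciPy 1.17.1). A peak was shared where it met any peak of the other list by 1 bp. Intervals are Wilson 95% intervals for shares and ratios, Newcombe's for differences of shares, and Woolf or Mantel-Haenszel for quotients of ratios. They treat peaks as independent and cover counting error only. The interval of a ratio and the Mantel-Haenszel estimate, without its interval, were checked on simulated independent counts. The Newcombe and Woolf intervals were not checked. Gene lengths run over all assigned transcripts. The depth per library is unknown, so the planned test between libraries was not run. Of the 1472 gene names 515 were current RefSeq symbols (GRCh38.p14), and 512 of these had overlapping coordinates in both sources, so RefSeq positions were used with hg38.

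Genes named are those with the most peaks in each list (12 and 12) or in 1 list alone (8 in KO, 6 in WT), the largest gains and losses of bases (5 and 5), the highest-fold, widest and promoter-class peaks, and up to 8 members of each of 4 gene lists. The members and lists were chosen with earlier results of these data known. Alternatives covered fold and q thresholds, lists of equal length, overlap, joined peaks, gene assignment, gene names and chromosomes.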

Additional observations from a re-analysis of the deposited data

How the results depend on the processing

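The KO to WT ratio of lincRNA peaks, 1.63, was 2.10 at fold 6 and above, 1.23 at or above the median fold, 1.14 with lists of equal length, 2.50 at or below the median q-value and 1.44 without chromosomes 14, 19 and 21. The ratio of covered bases, 1.81, was 2.21, 1.53, 1.50, 2.40 and 1.66 in the same order. The difference in share of autosomal peaks, 0.940 points, was 1.45 at fold 6 (-0.326 to 3.12), 0.347 with LINC names only and 0.407 without those chromosomes. The promoter share difference, 3.46 points, was -1.62 at fold 6 (-14.8 to 8.79) and 1.69 within 1 kb of a start. The ratio over the protein-coding ratio, 1.23, was 1.35 at fold 6 (0.942 to 1.93), 1.16 with equal lists, 1.32 by q-value and 1.13 without those chromosomes. The shared KO share, 43.5%, was 25.1% when 50% of both peaks had to overlap, 26.7% at fold 6, 45.9% at the median fold, 52.3% with equal lists, 32.1% by q-value, 55.4% with peaks up to 1 kb apart also taken as shared and 49.4% without those chromosomes; the WT share, 79.9%, was 40.9%, 56.0%, 61.8%, 70.2%, 82.2% and 88.4% for the first 6 of these. Genes of KO alone, 444, were 61 at fold 6 and 125 with LINC names. Genes of WT alone, 90, were 18 at fold 6, 139 at the median fold, 153 with equal lists, 33 with LINC names and 39 by q-value, and genes of both, 938, were 28 at fold 6, 608 at the median fold, 307 with LINC names and 521 by q-value. Gene counts with LINC names are lower by construction, since fewer genes enter, and the cause of the other changes was not tested. Of 22 chromosomes with more KO peaks, 16 kept more at fold 6, 18 at the median fold and 15 with equal lists: ratios turned below 1 on chromosomes 1 (0.902), 3 (0.901) and 13 (0.846) at the median fold, 10 (0.667) at fold 6, and 1 (0.883), 3 (0.859), 4 (0.939), 5 (0.912), 8 (0.921), 13 (0.891) and 18 (0.912) with equal lists. For the named genes, the KO minus WT number of peaks moved beyond its counting spread in 44 combinations of gene and setting, and FILNC1 (main value 12) turned to -1 at fold 6. Within that spread, AL603840.1 (7), LINC01170 (3), LINC02240 (10) and LINC00376 (6) turned to -11, -6, -1 and -2 with equal lists. At the median fold, AL603840.1 and LINC01170 turned to -7 and -3, also within it, and MIR99AHG (9) to -5, just beyond it. No paired analysis was possible because the lists hold no values per library, and no replicate could be left out. Depth per library is unknown.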

Other observations

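LincRNA peaks on the X chromosome, which enter no count above, did not share the surplus of the autosomes. They numbered 139 in KO and 160 in WT (ratio 0.869, 0.692 to 1.09) and covered 110140 KO and 104182 WT bp, while the autosomal ratio was 1.63. X peaks of every type numbered 2749 in KO and 3467 in WT (0.793, 0.754 to 0.834).

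On chromosome 15, lincRNA peaks were 16.3% of all peaks in KO and 16.3% in WT, while the ratio of its lincRNA peaks was 1.37, with 198 KO and 145 WT.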
